A study of Mus musculus with 9 samples.

Results

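The genes described here make cholesterol and fatty acids or control that synthesis. The list held 32 genes, chosen by name and role: 6 regulators around the sterol regulatory element binding proteins (SREBPs), 17 sterol enzymes and 9 fatty acid enzymes. It was chosen with earlier results of these data known, so its shares beside those of all genes only describe these data. The arrays measured 31 of the 32, with 16 sterol enzymes, among 18193 named genes tested. Acat2 was not analysed here. A gene with several probe sets was represented by the probe set with the highest mean signal over the 9 arrays.

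The cells were bone marrow derived macrophages of C57BL6 mice aged 6 to 12 weeks, taken on day 6 in vitro. They had been grown in medium conditioned by L929 cells, which was withdrawn the day before. Every group received LPS, the bacterial product that primes macrophages, at 33 ng/mL for 3 h, and no unprimed group was analysed. For the following 6 h, 3 cultures each received sterile saline, TMT OH at 1.25 µM or TET Br at 10 µM. TMT is trimethyltin and TET is triethyltin, organotin compounds that carry methyl or ethyl groups on the tin atom. The study set each organotin against saline as a model of NLRP3 inflammasome activation. The labels call the 3 cultures of a group biological replicates, but no source says that they came from separate mice, so each p-value reflects the variation among these cultures, which may be technical.

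SREBPs are transcription factors made as membrane proteins of the endoplasmic reticulum. When sterols are scarce, the escort protein SCAP carries them to the Golgi, where proteases release the active part; when sterols are plentiful, INSIG proteins hold SCAP back. The released factor switches on the enzymes that build cholesterol from acetyl-CoA, and those that make, elongate and desaturate fatty acids. Macrophages also take in large amounts of cholesterol and balance synthesis against export.

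Promoter windows of the listed genes were searched for short DNA motifs. RefSeq sequence of GRCm38.p6 gave the 250 bases before the start for 25 of the 32 listed genes, with 6 genes having more than 1 start. The search covered 4 motifs on both strands, and none of them contains another. A gene was counted if any of its windows held the motif, so a gene with several starts had more chances. The 25 genes had 34 windows, and all 27025 genes in the table had 32851. The NF-Y box CCAAT, bound by a factor that works beside SREBPs, lay in 20 of the 25 genes (80.0%) and in 37.5% of all 27025 genes in the table. The GC box GGGCGG lay in 21 genes (84.0%, against 35.4%), and the E-box CACGTG in 5 (20%, against 6.86%). The strict core of the sterol regulatory element, TCACNCCAC, was found in 1 gene, Hmgcs1 (4.0%, against 1.22%). Among the 14452 genes that were both tested and in the table, the shares were 39.4%, 53.4%, 8.73% and 1.27% in the same order. These are matches of letters, and their use in these cells was not measured.

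The windows of 4 genes are shown, chosen for the genes that recur in the results: Hmgcs1 with the sterol element core, Insig1 and Sc5d with an E-box, and Srebf2, the regulator itself. Capitals mark the sterol element core, the NF-Y box (ATTGG on this strand) and the E-box.
Hmgcs1, chr13:119690101-119690350, plus strand: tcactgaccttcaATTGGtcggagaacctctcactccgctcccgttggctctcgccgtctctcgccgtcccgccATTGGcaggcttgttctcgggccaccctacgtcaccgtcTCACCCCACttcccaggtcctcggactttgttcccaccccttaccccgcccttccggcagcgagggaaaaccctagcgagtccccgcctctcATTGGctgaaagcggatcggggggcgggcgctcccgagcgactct
Insig1, chr5:28071162-28071411, plus strand: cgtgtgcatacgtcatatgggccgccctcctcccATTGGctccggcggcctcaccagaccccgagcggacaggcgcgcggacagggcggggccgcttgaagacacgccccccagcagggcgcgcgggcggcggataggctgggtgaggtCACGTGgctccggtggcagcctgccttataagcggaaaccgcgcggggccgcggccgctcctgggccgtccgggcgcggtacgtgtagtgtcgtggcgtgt
Sc5d, chr9:42264301-42264550, minus strand: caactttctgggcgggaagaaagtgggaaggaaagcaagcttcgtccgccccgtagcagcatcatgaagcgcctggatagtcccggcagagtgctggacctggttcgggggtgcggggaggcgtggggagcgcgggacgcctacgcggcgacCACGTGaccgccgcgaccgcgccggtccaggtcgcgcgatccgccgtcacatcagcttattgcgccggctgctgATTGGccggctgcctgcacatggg
Srebf2, chr15:82147019-82147268, plus strand: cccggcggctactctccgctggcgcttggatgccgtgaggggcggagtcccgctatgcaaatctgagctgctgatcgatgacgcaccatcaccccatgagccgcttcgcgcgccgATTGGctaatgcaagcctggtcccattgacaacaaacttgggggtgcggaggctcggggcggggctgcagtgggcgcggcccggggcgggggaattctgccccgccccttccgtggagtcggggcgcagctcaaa
In the Hmgcs1 window the sterol element core began 137 bases before the start, and the NF-Y boxes began 45, 176 and 237 bases before it. The E-box of Insig1 began 101 bases before the start and that of Sc5d 98 bases before it, and the NF-Y box of Srebf2 began 135 bases before it.

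The arrays themselves were alike in level. Array medians were 6.08 to 6.09 on the log2 scale in saline, 6.11 to 6.12 under TMT and 6.16 to 6.19 under TET. The interquartile range of the arrays was 3.83 to 3.88 in saline, 3.78 to 3.86 under TMT and 3.45 to 3.55 under TET, so the TET arrays had a narrower spread of signal. All 8 macrophage markers were above the median gene in saline. None of the measured markers of B cells (3), T and NK cells (4), dendritic cells (3), erythroid cells (2) or mast cells (3) was. Of 6 measured neutrophil markers 4 were above it, with a list mean of 7.85 to 8.01 in saline, 7.27 to 7.64 under TMT and 7.27 to 7.43 under TET. Of 4 fibroblast markers 2 were above it, and of 2 adipocyte markers 1 was, the fatty acid carrier Fabp4. The adipocyte list mean was 8.20 to 8.31 in saline, 7.73 to 8.14 under TMT and 9.07 to 9.19 under TET, and its part in the lipid gene results was not tested. The macrophage list mean was 12.50 to 12.55 in saline, 12.32 to 12.64 under TMT and 12.28 to 12.41 under TET. Of the 8 macrophage markers 2 fell and 2 rose under TMT, and 4 fell and 1 rose under TET. Over all genes 13.4% fell under TMT and 23.4% under TET.

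Most of the synthesis genes fell under TMT. Of the 31 measured, 21 fell (67.7%), 5 rose (16.1%) and 5 did not pass the test (limma, Benjamini-Hochberg adjusted p under 0.05 over all genes). Over all genes tested, 13.4% fell and 14.3% rose in that comparison. The median log2 difference of the members from saline was -0.85, beside 0.01 for all genes, and 11 members fell at least 2-fold. On 27 of the 31 genes the 3 TMT arrays lay wholly outside the saline range (22 below it and 5 above), and over all genes 44.7% did.

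Under TET, 17 members fell (54.8%), 5 rose (16.1%) and 9 did not pass by the same test. Over all genes, 23.4% fell and 27.4% rose. The members' median difference from saline was -0.43, beside 0.09 for all genes, and 8 members fell at least 2-fold. The 3 TET arrays lay wholly outside the saline range on 26 of the 31 genes (19 below, 7 above), and over all genes 58.7% did. The TET background depended on brightness: among the 9097 genes at or above the median brightness, 41.3% fell and 23.6% rose, with a median of -0.19. Of the 26 members in that bright group 13 fell (50.0%) and 4 rose, with a median of -0.38, so the share of members that fell under TET exceeded that of bright genes by less than it exceeded that of all genes. Under TMT the same bright group had 22.1% that fell and 24.1% that rose, and 18 of the 26 bright members fell (69.2%). In whole cultures, fewer cells of a type and less RNA per cell cannot be told apart.

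**Figure D1:**
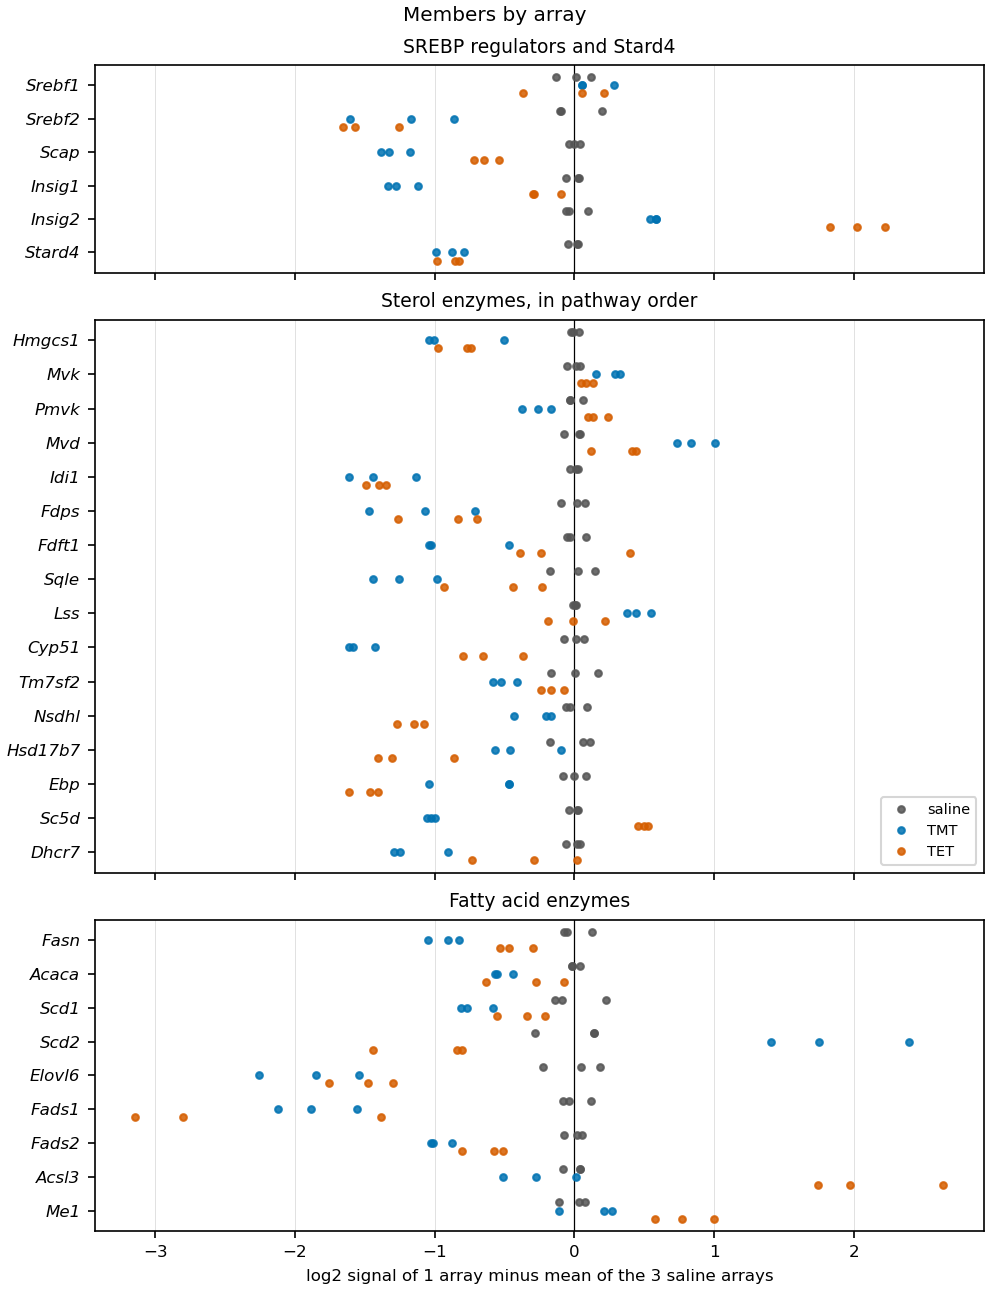
Each point is 1 array: the log2 signal of a gene minus its mean over the 3 saline arrays (horizontal axis), for the 31 genes in 3 groups by role, with saline in grey, TMT in blue and TET in orange. Most blue points sit left of the saline points; Scd2 under TMT, and Insig2 and Acsl3 under TET, stand far to the right.

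Of the regulators, Srebf2, Scap and Insig1 were each more than 2-fold lower under TMT, while Insig2 rose. Under TET Srebf2 was lower by a similar amount, Insig2 was 4.08-fold higher, and Insig1 did not pass the test. Counted together, 4 of the 6 regulators fell and 1 rose under TMT, and 3 fell and 1 rose under TET. All 6 are bright genes, and of bright genes 22.1% fell under TMT and 41.3% under TET, so the TET count of 3 in 6 is near the background.

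Srebf2 encodes the SREBP that acts mainly on sterol genes. Its log2 signal was 9.61, 9.31 and 9.32 in saline, 8.24, 7.80 and 8.55 under TMT, and 7.76, 8.16 and 7.84 under TET. Neither organotin group overlapped saline, and the organotin groups overlapped each other. It fell by 1.21 under TMT (SE 0.185, adjusted p = 0.00063, limma) and fell by 1.49 under TET (adjusted p = 9.3e-05). Srebf1, whose product acts mainly on fatty acid genes, did not pass in either comparison. Its differences from saline were 0.13 under TMT (95% interval -0.20 to 0.46) and -0.03 under TET (-0.36 to 0.30).

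Scap, the escort, read 9.95, 9.99 and 10.03 in saline, 8.61, 8.81 and 8.66 under TMT, and 9.34, 9.28 and 9.45 under TET. The 3 groups did not overlap, with TMT lowest. The difference from saline was -1.30 under TMT (SE 0.0906, adjusted p = 3.6e-06, limma) and -0.63 under TET (adjusted p = 0.00024). A second, dimmer Scap probe set differed from saline by -0.15 under TMT and 0.77 under TET. On the mean over both probe sets the TET difference was 0.067 (adjusted p = 0.70), so the TET fall rests on the brighter probe set.

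The pair of INSIG genes went different ways. Insig1, itself a known SREBP target, read 12.56, 12.46 and 12.55 in saline, 11.25, 11.40 and 11.19 under TMT, and 12.23, 12.23 and 12.43 under TET. All TMT arrays were far below the other groups, with a difference from saline of -1.24 (SE 0.0964, adjusted p = 6.8e-06, limma). The TET arrays were also all below saline, with a difference of -0.23 that did not pass (adjusted p = 0.074). It passed without TET replicate 3 (-0.29, adjusted p = 0.029), with trended robust moderation (adjusted p = 0.036) and centred on array medians (-0.31, adjusted p = 0.026).

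Insig2 read 9.47, 9.32 and 9.34 in saline, 9.96, 9.96 and 9.91 under TMT, and 11.21, 11.40 and 11.60 under TET. The groups were fully separate, with TET highest: the difference from saline was 0.57 under TMT (SE 0.108, adjusted p = 0.0026, limma) and 2.03 under TET (adjusted p = 2.7e-07), which is 4.08-fold. The other Insig2 probe sets differed from saline by -0.03 and 0.15 under TET, so the large TET rise was seen on 1 of the 3 probe sets.

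Stard4, a sterol carrier of the cytosol, fell by 0.89 under each compound (SE 0.089, adjusted p = 3.7e-05 under TMT and 2.1e-05 under TET, limma). Its saline arrays read 8.80 to 8.87, its TMT arrays 7.86 to 8.05 and its TET arrays 7.86 to 8.02. The other Stard4 probe sets differed by -1.01 and -1.24 under TMT, and by -0.17 and -1.08 under TET.

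**Figure D2:**
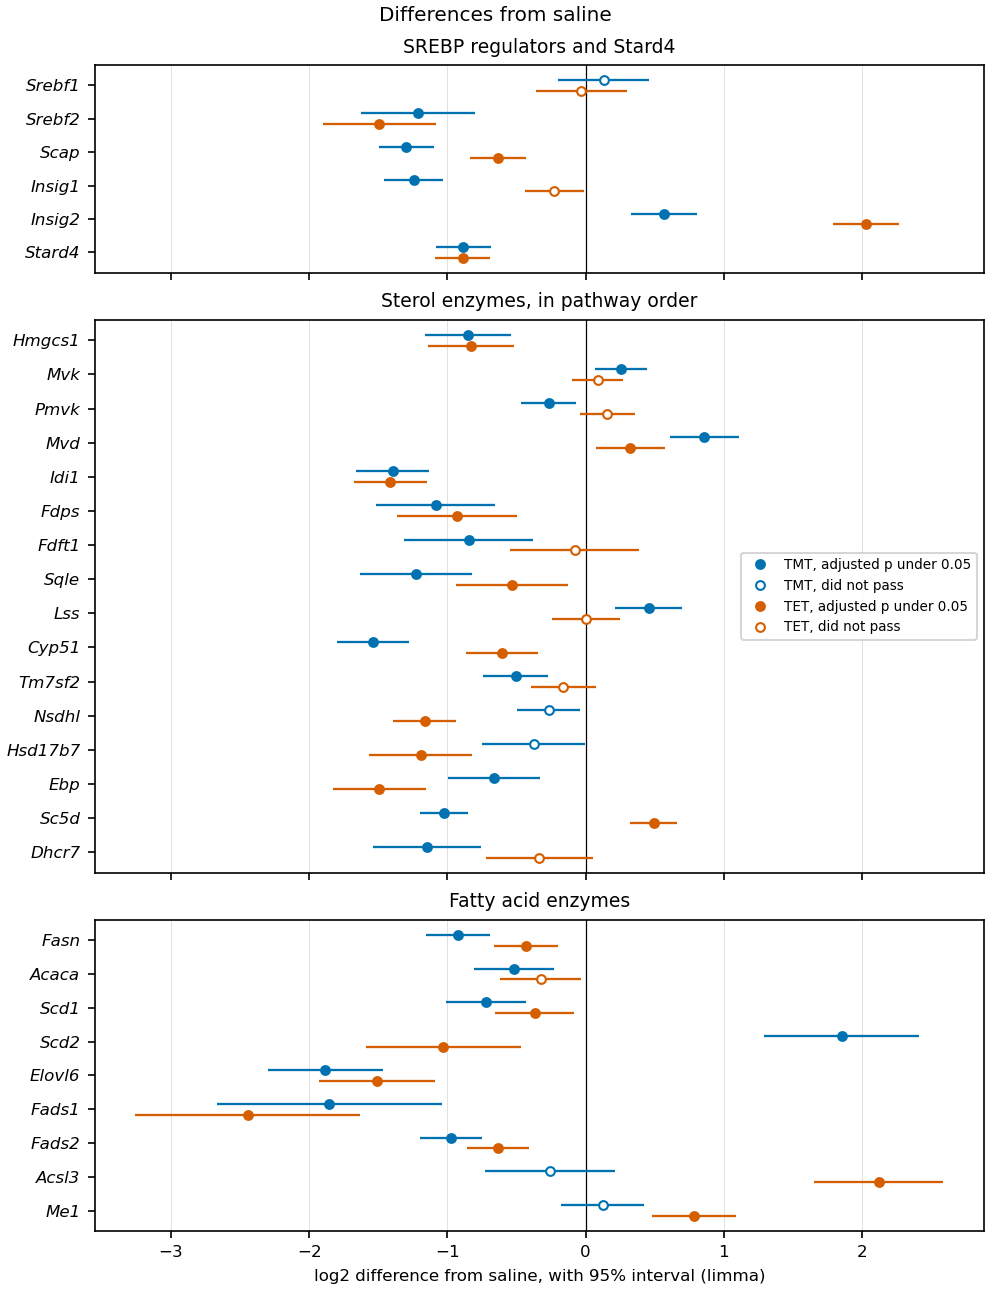
Log2 difference from saline (horizontal axis) of each gene under TMT (blue) and TET (orange), with its 95% interval from limma, over 3 arrays a group; filled points had an adjusted p under 0.05. Of the 31 genes, 21 are filled on the left of 0 under TMT and 17 under TET.

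Along the sterol pathway, 11 of the 16 measured enzymes fell under TMT, from Hmgcs1 near its start to Dhcr7 at its end, while 3 rose. Under TET 8 fell and 2 rose. All 16 are bright genes, of which 22.1% fell under TMT and 41.3% under TET, so the 50% that fell under TET is near that background. The list medians were -0.75 under TMT and -0.43 under TET. The mean signal over the 16 enzymes was 9.38 to 9.42 in the saline arrays, 8.72 to 8.84 in the TMT arrays and 8.87 to 8.96 in the TET arrays.

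Early in the pathway, Hmgcs1 makes the HMG-CoA that feeds the mevalonate route. It read 13.07, 13.13 and 13.09 in saline, 12.09, 12.59 and 12.06 under TMT, and 12.33, 12.12 and 12.35 under TET. Both organotin groups lay below saline and overlapped each other. The differences were -0.85 (SE 0.14, adjusted p = 0.001, limma) and -0.83 (adjusted p = 0.00072). All of its probe sets were lower under both compounds. The probe set used may bind related transcripts, which here means several transcripts of the same gene. Another 3 probe sets gave larger differences, of -1.44 to -1.48 under TMT and -1.54 to -1.63 under TET.

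The mevalonate kinases and the decarboxylase behaved otherwise. Mvk, the mevalonate kinase, rose by 0.26 under TMT (adjusted p = 0.044, limma), and Pmvk, the kinase after it, fell by 0.27 (adjusted p = 0.049). Both are close to the threshold, and each lost the call when an array was left out: the adjusted p was 0.089 to 0.15 for Mvk without any 1 saline array and 0.11 to 0.12 without TMT replicate 2 or 3, and for Pmvk it was 0.055 to 0.19 without TET replicate 2, TMT replicate 1 or 3, or any 1 saline array. Under TET neither passed, at 0.09 for Mvk (adjusted p = 0.41) and 0.16 for Pmvk (adjusted p = 0.17), with all TET arrays above saline. Both passed with cyclic loess (0.33 and 0.42, adjusted p = 0.011 and 0.0059) and with quantile normalization again (0.27 and 0.29, adjusted p = 0.023 and 0.035). Mvd, the decarboxylase that makes isopentenyl diphosphate, rose under both compounds. It read 7.77 to 7.88 in saline, 8.58 to 8.85 under TMT and 7.96 to 8.28 under TET. The Mvd differences were 0.86 (adjusted p = 0.00023) and 0.32 (adjusted p = 0.035), and its other probe set differed by 0.15 and 0.02. The TET call of Mvd was lost without TET replicate 2 or 3 or any 1 saline array, at adjusted p from 0.067 to 0.11.

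Idi1, the isomerase that makes the second isoprene building block, fell under both compounds. It read 12.02, 12.07 and 12.06 in saline, 10.44, 10.92 and 10.61 under TMT, and 10.65, 10.56 and 10.70 under TET. Both groups were more than 1 log2 unit below every saline array. The differences were -1.39 (SE 0.119, adjusted p = 1.2e-05, limma) and -1.41 (adjusted p = 6.6e-06). Fdps, the synthase that joins isoprene units into farnesyl diphosphate, fell by 1.08 under TMT (SE 0.194, adjusted p = 0.0018) and fell by 0.93 under TET (adjusted p = 0.0027).

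The steps that make squalene and close it into a sterol differed between the compounds. Fdft1, squalene synthase, fell by 0.85 under TMT (SE 0.209, adjusted p = 0.012, limma), with no TMT array in the saline range; without TMT replicate 1 the adjusted p was 0.053. Its TET arrays read 10.90, 10.26 and 10.11 around saline values of 10.45 to 10.58, a difference of -0.08 (adjusted p = 0.77). That probe set may bind related transcripts. On the brightest Fdft1 probe set that does not, the TET arrays lay wholly below saline, at -0.42 (adjusted p = 0.0058, limma). The remaining Fdft1 probe sets, both dim, differed by 0.07 and 0.05 under TMT and by 0.21 and 0.31 under TET. Sqle, squalene epoxidase, is a rate-limiting enzyme of the late pathway. It read 8.84, 8.72 and 8.52 in saline, 7.44, 7.25 and 7.71 under TMT, and 7.76, 8.25 and 8.46 under TET, with differences of -1.23 (SE 0.182, adjusted p = 0.00054) and -0.53 (adjusted p = 0.033). The TET call of Sqle was lost without TET replicate 1 or without saline replicate 1 or 2, at adjusted p from 0.085 to 0.11. Lss, the cyclase that closes the sterol rings, rose by 0.46 under TMT (adjusted p = 0.01) and its TET difference was 0.01 (95% interval -0.24 to 0.25). A further Lss probe set of similar brightness, at 8.80 in saline, differed by 0.03 under TET. A dim one, at 5.99 in saline, differed by -1.46, and the mean over all Lss probe sets fell by 0.47 (adjusted p = 0.0015).

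Cyp51, the demethylase of lanosterol, had the largest fall among the sterol enzymes under TMT. It read 10.87, 10.73 and 10.81 in saline, 9.19, 9.38 and 9.22 under TMT, and 10.15, 10.01 and 10.43 under TET. The 3 groups were separate, TMT lowest. The differences from saline were -1.54 (SE 0.117, adjusted p = 6e-06, limma) and -0.61 (adjusted p = 0.0017). Tm7sf2, the sterol reductase of the next step, fell by 0.51 under TMT (adjusted p = 0.0048) and differed by -0.16 under TET (adjusted p = 0.23).

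Nsdhl, Hsd17b7 and Ebp act one after another, removing the methyl groups of the ring and moving its double bond, and all 3 were lowest under TET. Nsdhl read 8.67, 8.80 and 8.64 in saline, 8.50, 8.27 and 8.53 under TMT, and 7.55, 7.62 and 7.43 under TET. Its TET difference was -1.17 (SE 0.102, adjusted p = 8.4e-06, limma), and its TMT difference of -0.27 did not pass (adjusted p = 0.081). The TMT arrays of Nsdhl all lay below saline. Its TMT difference passed with array weights (-0.20, adjusted p = 0.019) and among bright genes alone (-0.27, adjusted p = 0.047).

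Hsd17b7 read 8.72, 8.77 and 8.48 in saline, 8.09, 8.56 and 8.20 under TMT, and 7.80, 7.25 and 7.35 under TET. It fell by 1.19 under TET (SE 0.167, adjusted p = 0.00022, limma), and under TMT the difference was -0.37 (adjusted p = 0.14). With array weights the TMT difference passed (-0.51, adjusted p = 0.0011). The other Hsd17b7 probe sets differed by -0.94, -0.82 and 0.43 under TET and by -0.40, -0.35 and 0.27 under TMT. Ebp read 8.69, 8.78 and 8.86 in saline, 8.31, 7.73 and 8.31 under TMT, and 7.32, 7.37 and 7.16 under TET. Every TET array was below every TMT array, and the differences were -1.49 under TET (SE 0.15, adjusted p = 2.2e-05) and -0.66 under TMT (adjusted p = 0.0074).

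At the final steps the TMT arrays were the lowest. Sc5d, the desaturase that makes the precursor of the last reduction, fell under TMT and rose under TET: it read 9.90, 9.96 and 9.97 in saline, 8.92, 8.88 and 8.95 under TMT, and 10.44, 10.47 and 10.39 under TET. The groups were fully apart, at -1.03 (SE 0.0769, adjusted p = 5.5e-06, limma) and 0.49 (adjusted p = 0.00044). Its other probe sets differed by -0.71 and -1.20 under TMT, and by 0.89 and -0.24 under TET. Dhcr7, a reductase that finishes cholesterol, read 8.76, 8.74 and 8.66 in saline, 7.47, 7.43 and 7.82 under TMT, and 8.44, 7.99 and 8.74 under TET. It fell by 1.15 under TMT (SE 0.175, adjusted p = 0.00064), and its TET difference of -0.33 did not pass (adjusted p = 0.14) but was -0.51 without TET replicate 3 (adjusted p = 0.025).

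Among the fatty acid enzymes, 6 of 9 fell under each compound, where 13.4% of all genes fell under TMT and 23.4% under TET (41.3% of bright genes). Scd2 rose under TMT, and Acsl3 and Me1 rose under TET. The list medians were -0.72 under TMT and -0.43 under TET. Of these 9 genes, Scd1, Scd2, Elovl6, Fads2 and Me1 were below the median brightness of 6.82, where a fold change may be understated, and the other 4 were above it.

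Fasn, the fatty acid synthase, read 8.58, 8.75 and 8.56 in saline, 7.73, 7.58 and 7.80 under TMT, and 8.33, 8.16 and 8.10 under TET. It fell by 0.92 under TMT (SE 0.103, adjusted p = 7.9e-05, limma) and fell by 0.43 under TET (adjusted p = 0.0059). With cyclic loess or a further quantile normalization the TET call of Fasn was lost (-0.18, adjusted p = 0.17, and -0.23, adjusted p = 0.0998). Acaca, the carboxylase that supplies malonyl-CoA to it, fell by 0.52 under TMT (adjusted p = 0.013) and differed by -0.33 under TET (adjusted p = 0.06). The TET difference of Acaca passed under 5 alternatives, among them without TET replicate 3 (-0.45, adjusted p = 0.01) and on the mean over its probe sets (-0.52, adjusted p = 0.0058).

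The elongase Elovl6, which lengthens the products of Fasn, had the largest TMT fall of all members. It read 6.97, 7.37 and 7.24 in saline, 5.34, 5.65 and 4.93 under TMT, and 5.71, 5.44 and 5.89 under TET. Both groups lay below every saline array, with differences of -1.88 (SE 0.188, adjusted p = 3.6e-05, limma) and -1.51 (adjusted p = 9.6e-05). A further Elovl6 probe set went from 8.53 in saline to 4.10 under TMT and 4.74 under TET. The remaining, dim Elovl6 probe set differed by -0.15 under TMT and 0.35 under TET.

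Fads1 and Fads2, neighbouring genes on chromosome 19 with 0 protein-coding genes between them, encode desaturases of polyunsaturated fatty acids. Fads1 read 9.77, 9.57 and 9.62 in saline, 7.77, 7.53 and 8.10 under TMT, and 6.51, 6.85 and 8.27 under TET. It fell by 1.86 (SE 0.365, adjusted p = 0.0032, limma) and fell by 2.44 (adjusted p = 0.00033), and the TET arrays differed widely among themselves (SD 0.93). A dim second Fads1 probe set differed by 0.46 and 0.51. Fads2 fell by 0.97 under TMT (SE 0.101, adjusted p = 4.6e-05) and fell by 0.63 under TET (adjusted p = 0.00051), and its other probe sets were lower too.

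The stearoyl-CoA desaturases Scd1 and Scd2, which make monounsaturated fatty acids, lie on the same chromosome with 1 protein-coding gene between them. Scd1 was dim, at 4.58 to 4.95 in saline, 3.92 to 4.14 under TMT and 4.17 to 4.51 under TET. It fell by 0.72 (adjusted p = 0.0018, limma) and fell by 0.37 (adjusted p = 0.036); the TET call was lost without TET replicate 2 or 3, TMT replicate 1, or saline replicate 1 or 3, at adjusted p from 0.053 to 0.14. The other Scd1 probe set differed by 0.07 under TMT and -0.04 under TET, overlapping saline in both, and the mean over the probe sets was -0.20 under TET (adjusted p = 0.055). Scd2 moved in opposite directions: it read 5.94, 5.94 and 5.52 in saline, 7.55, 7.21 and 8.19 under TMT, and 4.36, 5.0 and 4.96 under TET. The differences were 1.85 under TMT (SE 0.253, adjusted p = 3e-04) and -1.03 under TET (adjusted p = 0.0068). Its other probe sets differed by 1.14 and 0.77 under TMT, and by -0.01 and -0.16 under TET, and on the mean over its probe sets the TET call was lost (-0.40, adjusted p = 0.11).

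Acsl3, a ligase that activates long-chain fatty acids at lipid droplets, read 7.57, 7.57 and 7.45 in saline, 7.02, 7.54 and 7.26 under TMT, and 9.28, 9.50 and 10.17 under TET. The TET arrays were far above the rest, at 2.12 over saline (SE 0.21, adjusted p = 2e-05, limma), while TMT differed by -0.26 (adjusted p = 0.45). Me1, the malic enzyme that supplies NADPH, read 5.76 to 5.95 in saline, 5.76 to 6.14 under TMT and 6.45 to 6.87 under TET. It rose by 0.78 under TET (SE 0.135, adjusted p = 0.00084) and its TMT difference was 0.12 (adjusted p = 0.6). With array weights the TMT differences of Acsl3 (-0.45, adjusted p = 0.0049) and Me1 (0.24, adjusted p = 0.025) passed.

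**Figure D3:**
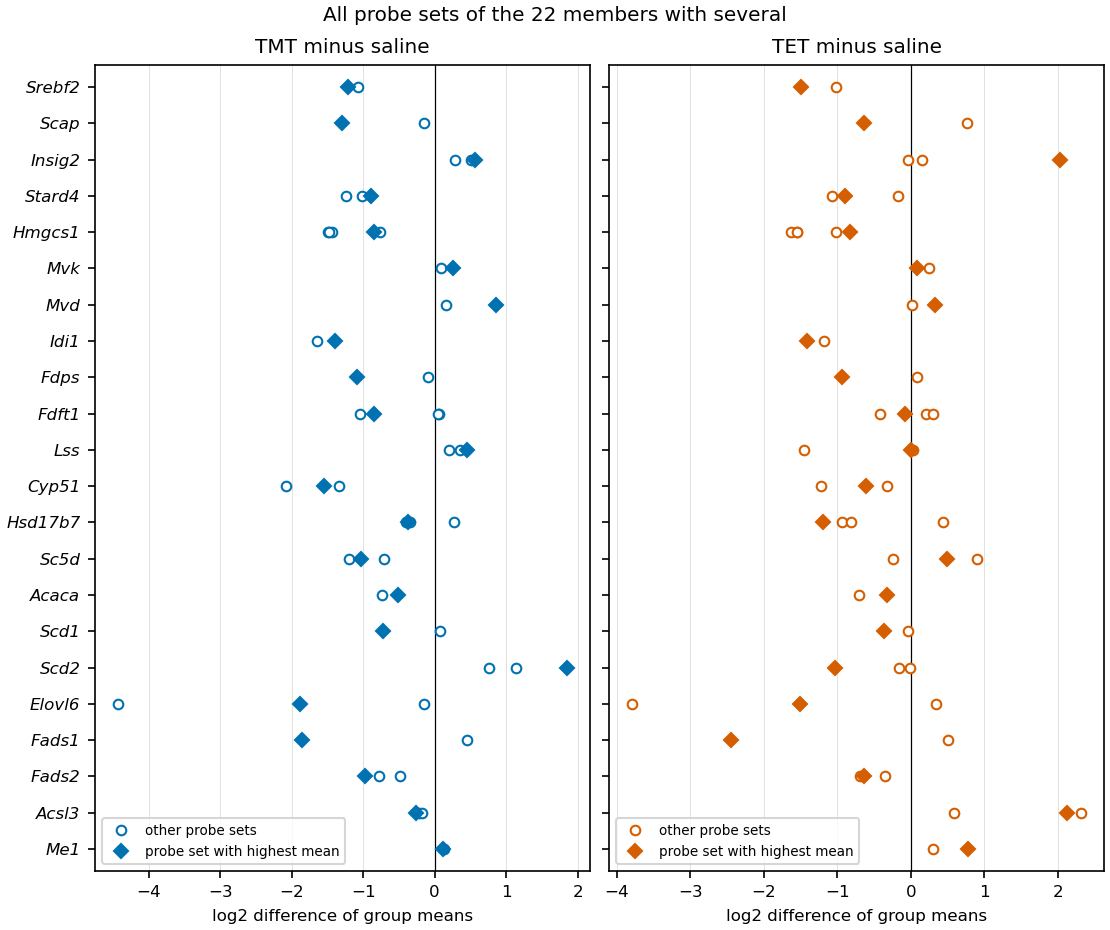
Log2 difference from saline (horizontal axis) on every probe set of the 22 members that have several, under TMT (left) and TET (right); diamonds are the probe sets used in the text and circles the others. All probe sets of a gene shared a sign in 18 genes under TMT and in 13 under TET.

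The direct comparison of TET with TMT asked whether the values differed at the doses used, 10 and 1.25 µM, and the unequal doses allow no statement on strength. Of the 31 members, 15 were higher under TET than under TMT (48.4%), 6 were lower (19.4%) and 10 did not pass (limma, adjusted p under 0.05). Over all genes, 28.1% were higher and 23.7% lower, and among the bright genes 25.1% were higher and 41.5% lower. The median difference of the members was 0.34, beside 0.11 for all genes. The arrays of the compounds did not overlap on 22 members, and over all genes this held for 57.0%.

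The largest differences were those of Scd2 (-2.88, SE 0.253, adjusted p = 7.6e-06), Acsl3 (2.38, adjusted p = 8.1e-06), Sc5d (1.52, adjusted p = 2e-07) and Insig2 (1.46, adjusted p = 2.4e-06). On the mean over its probe sets Insig2 differed by 0.26 (adjusted p = 0.087). Insig1 was 1.02 higher under TET (adjusted p = 1.3e-05), Cyp51 0.93 higher (adjusted p = 9.1e-05), Dhcr7 0.81 higher (adjusted p = 0.0031) and Scap 0.66 higher (adjusted p = 0.00017). Fdft1 and Sqle were higher under TET too (0.77 and 0.69, adjusted p = 0.011 and 0.0094), and Lss and Mvd were lower (-0.45 and -0.53, adjusted p = 0.0064 and 0.0028). The enzymes that were lower under TET included the consecutive Nsdhl (-0.90, adjusted p = 4.5e-05), Hsd17b7 (-0.82, adjusted p = 0.0023) and Ebp (-0.83, adjusted p = 0.0011), all by limma. The smaller differences of Fads2 (0.34), Scd1 (0.35) and Tm7sf2 (0.35) lost the call when an array was left out: Fads2 without TMT replicate 3 (adjusted p = 0.058), Tm7sf2 without TET replicate 1 or TMT replicate 1 or 3 (0.057 to 0.075), and Scd1 without TET replicate 1 or 3, TMT replicate 1 or 3, or saline replicate 1 (0.057 to 0.13).

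Some genes did not pass in the direct test. For Stard4 the difference was -0.0041 (95% interval -0.20 to 0.19), for Hmgcs1 0.02 (-0.29 to 0.33) and for Idi1 -0.02 (-0.28 to 0.25). The values for Stard4 and Idi1 depend on the probe set: Stard4 on the mean over its probe sets was 0.33 higher under TET (adjusted p = 0.0031), and Idi1 on a probe set not marked as binding related transcripts was 0.46 higher (adjusted p = 0.0046). The intervals were wider for Fdps (0.15, interval -0.28 to 0.58) and Srebf2 (-0.28, interval -0.69 to 0.13). Leaving out 1 array brought 4 such genes past the threshold: Srebf2 (-0.47, adjusted p = 0.036) and Elovl6 (0.54, adjusted p = 0.034) without TMT replicate 2, Fads1 (-1.12, adjusted p = 0.000615) without TET replicate 3, and Acaca (0.34, adjusted p = 0.017) without TET replicate 2.

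The comparisons with saline share the 3 saline arrays, so calls that they share are not counted here, and the direct test carries the contrast. Insig1, Pmvk, Fdft1, Tm7sf2 and Dhcr7, which fell under TMT and did not pass under TET, were higher under TET than TMT. Acaca had the same calls against saline but did not pass in the direct test (0.19, adjusted p = 0.24, limma). For Pmvk the TMT call was close to the threshold, and its TET arrays lay above saline (0.16). Nsdhl and Hsd17b7, which fell under TET and did not pass under TMT, were lower under TET than TMT. Their TMT differences were also negative and passed with array weights. The direct call of Hsd17b7 was lost without probe sets that may bind related transcripts (-0.54, adjusted p = 0.070, limma). Sc5d and Scd2 passed in opposite directions against saline, and Srebf1 passed in neither comparison with saline.

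**Figure D4:**
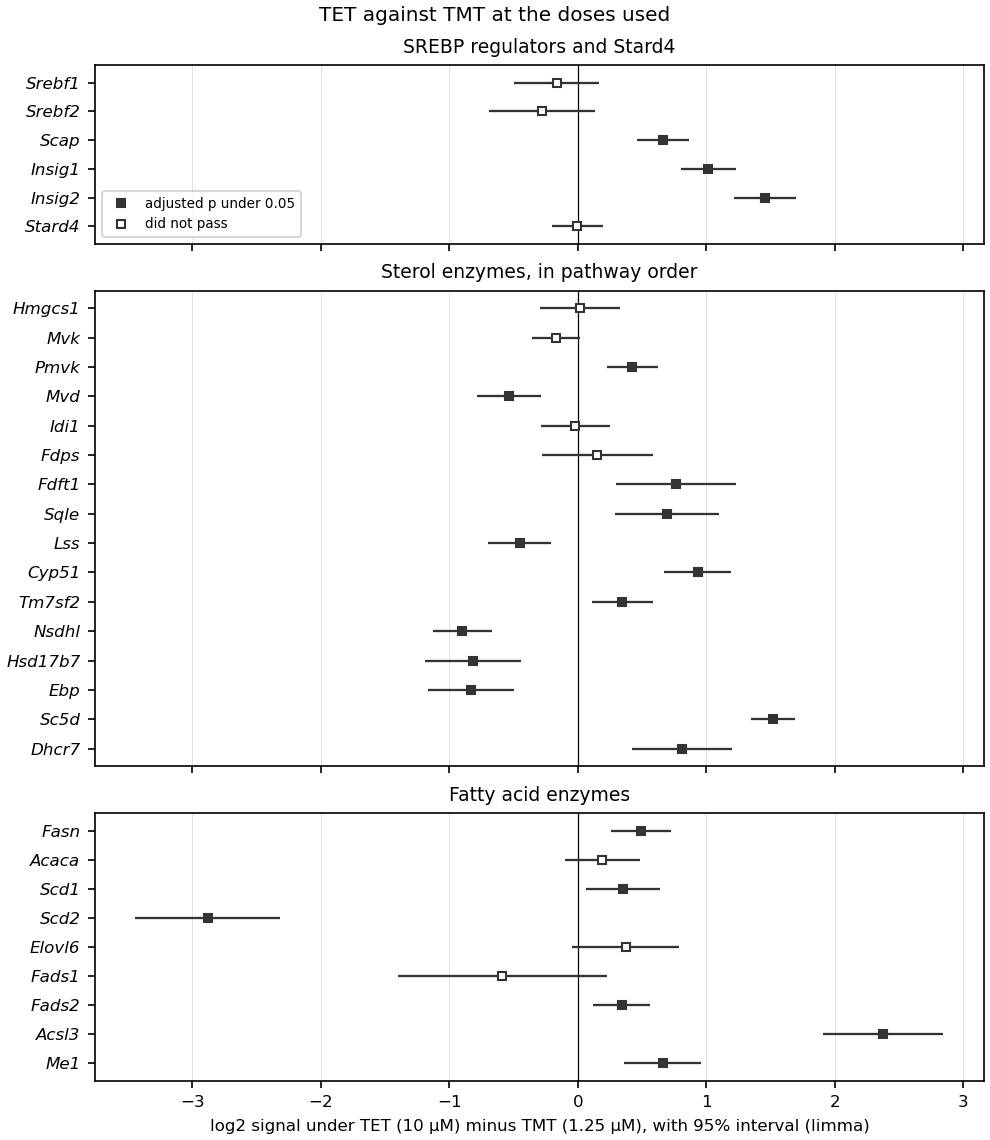
Log2 signal under TET minus that under TMT (horizontal axis) with 95% intervals from limma, 3 arrays a group; filled squares had an adjusted p under 0.05. Scd2 lies farthest left and Acsl3 farthest right.

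Further lists covered other genes of the same biology. Of 11 measured genes of the remaining SREBP machinery, 2 rose and 3 fell under TMT (median -0.20), and 10 fell and 0 rose under TET (median -0.91). In the direct test all 11 were lower under TET than TMT. All 11 are bright genes, of which 22.1% fell and 24.1% rose under TMT, so the TMT counts are near the background. Of bright genes 41.3% fell and 23.6% rose under TET, and 41.5% were lower under TET than TMT. Rnf139, an ubiquitin ligase of the endoplasmic reticulum, fell by 0.74 under TMT (adjusted p = 0.00043, limma) and fell by 1.49 under TET (adjusted p = 2.1e-06). Erlin1 and Erlin2, cholesterol-binding proteins of the same membrane, rose by 0.69 and 0.65 under TMT, and the differences of TET from TMT were -1.37 and -1.11. Against saline both fell under TET (-0.68 and -0.46).

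Among the carriers and proteases that deliver and cut SREBPs, Sar1a, the GTPase that starts transport vesicles, fell by 1.53 under TET (adjusted p = 1.8e-05, limma). Mbtps2, the protease that makes the releasing cut, fell by 1.52 under TET (adjusted p = 2.5e-05) and also fell under TMT (-0.54). Sec24a, a coat protein of those vesicles, was lower under TET than TMT (-1.19, adjusted p = 0.00016) and fell under TET against saline (-1.39). Pgrmc1, a haem-binding membrane protein, fell by 0.43 under TMT and fell by 0.93 under TET.

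Of 10 measured other sterol and isoprenoid enzymes, 3 rose and 1 fell under TMT (median -0.12), and 1 rose and 4 fell under TET (median -0.27). Under TMT 10% fell, where 13.4% of all genes and 22.1% of bright genes did, so that share is near that of all genes. Rises under TMT made up 30%, where 14.3% of all genes and 24.1% of bright genes rose. The share that fell under TET, 40%, is near the 41.3% of bright genes, and over all genes 23.4% fell. Rises under TET made up 10%, where 27.4% of all genes and 23.6% of bright genes rose. Msmo1, the methylsterol oxidase that works just before Nsdhl, fell by 0.73 under TMT (adjusted p = 0.0082, limma). Its TET difference of -0.80 passed too. Ggps1, which makes the geranylgeranyl lipid anchor, rose by 0.41 under TMT (adjusted p = 0.028) and by 1.06 under TET (adjusted p = 5.4e-05). Fnta, a subunit of the farnesyl and geranylgeranyl transferases, rose by 0.56 under TMT and fell by 0.73 under TET. Acat1, the mitochondrial thiolase, fell by 1.41 under TET, Nus1, a subunit of the dolichol enzyme, fell by 0.55, and Cyb5r3, which supplies electrons to sterol oxidases, rose by 0.34 under TMT.

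Of 19 measured other fatty acid enzymes, 5 rose and 3 fell under TMT (median 0.04), and 2 rose and 9 fell under TET (median -0.23). The list mixes bright and dim genes, so both backgrounds are given. Of its genes 47.4% fell under TET, where 23.4% of all genes and 41.3% of bright genes did. Under TMT 15.8% fell, where 13.4% of all genes and 22.1% of bright genes did. Rises made up 26.3% under TMT, where 14.3% of all genes and 24.1% of bright genes rose. They made up 10.5% under TET, where 27.4% of all genes and 23.6% of bright genes rose. The dehydratases Hacd2 and Hacd3 fell under TMT (-0.94 and -1.07, adjusted p = 1.7e-05 and 0.00029, limma), and Hacd3 fell by 1.57 under TET (adjusted p = 1.3e-05). Tecr, the reductase that ends each elongation round, fell by 0.86 under TET. The ligases Acsl4 and Acsl5 fell under TET (-0.91 and -0.48) and rose under TMT (0.40 and 0.42). Mlx, a partner of a glucose-responsive transcription factor, rose by 0.79 under TMT and was lower under TET than TMT (-1.33). Against saline Mlx fell under TET (-0.54).

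Of 13 measured genes of cholesterol uptake, export and oxysterols, 3 rose and 3 fell under TMT (median 0.0007), and 4 rose and 4 fell under TET (median 0.04). Under TMT 23.1% fell, where 13.4% of all genes and 22.1% of bright genes did, and 23.1% rose, where 14.3% and 24.1% did. Under TET 30.8% fell, where 23.4% of all genes and 41.3% of bright genes did, and 30.8% rose, where 27.4% and 23.6% did. The TMT shares are near those of bright genes, and the TET shares are near or between the backgrounds. The exporter Abcg1 read 9.50 to 9.59 in saline, 11.25 to 11.54 under TMT and 11.18 to 11.59 under TET. It rose by 1.90 and 1.87, with no overlap with saline. The exporter Abca1 was 1.63 higher under TMT (adjusted p = 2.1e-06, limma) and lower under TET than TMT (-1.31). Against saline Abca1 also rose under TET, by 0.31. Lipa, the lysosomal lipase that frees cholesterol from esters, fell by 1.55 under TMT, and Cyp27a1, which makes an oxysterol, fell by 1.24. Both also fell under TET (-0.71 and -0.66). Ch25h, another oxysterol enzyme, fell by 0.83 under TET, and Lpcat3, a phospholipid remodelling enzyme, fell by 1.66. Lpin1, a phosphatidate phosphatase, rose by 1.41 under TET, and Nceh1, a cholesterol ester hydrolase, was 1.43 higher under TET than TMT. Against saline Nceh1 fell under TMT (-0.96) and rose under TET (0.47).

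**Figure D5:**
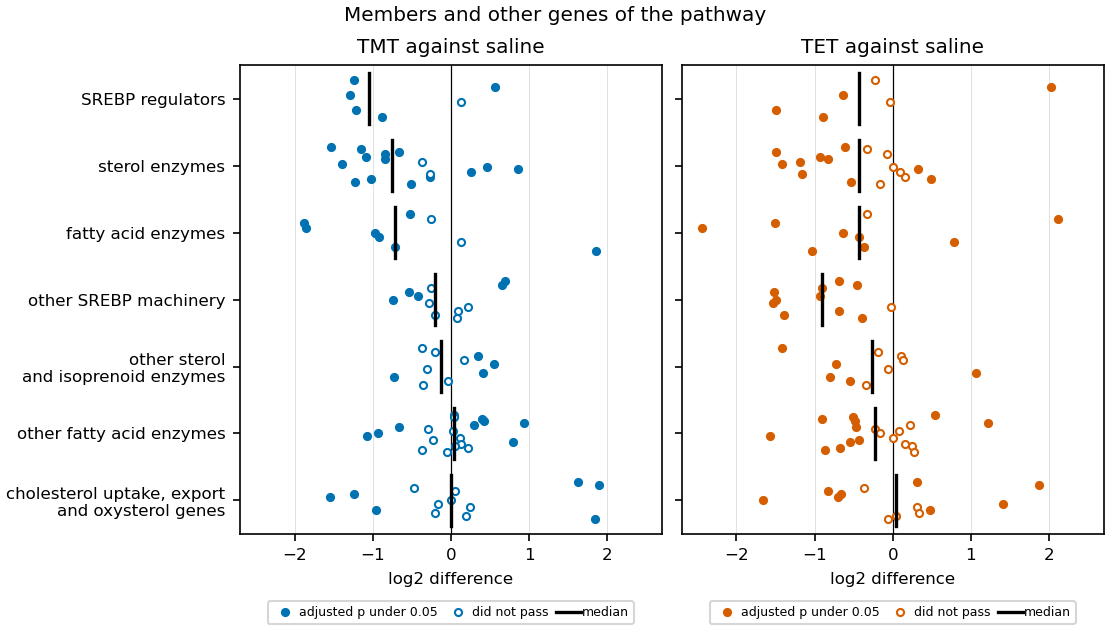
Log2 difference from saline (horizontal axis) of each measured gene of the 3 member groups and the 4 further lists, under TMT (left) and TET (right); filled points had an adjusted p under 0.05 and bars are list medians. Under TMT the member groups have medians of -1.05, -0.75 and -0.72 and the further lists lie between -0.20 and 0.04; under TET the remaining SREBP machinery has the lowest median, -0.91.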

How the data were processed

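RNA (50 ng) was amplified, biotin-labelled and read on 9 Affymetrix arrays, 3 per group, per the labels' protocols. Per the submitters' processing notes, the authors processed the arrays with affy and RMA, with no version recorded in those notes. The deposited values were used as log2 signal, with the base taken from their range of 2.05 to 14.8. Arrays give no depth, so their number limits the precision.

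Of 45037 probe sets, 34945 named 1 gene in the platform annotation, 932 named several and 9160 none. The brightest probe set of each of 18193 genes was kept. Group means were fitted to all 9 arrays with limma 3.58.1 in R 4.3.3 (lmFit and eBayes, two-sided), with Benjamini-Hochberg adjustment over all genes, at 0.05. "Rose" and "fell" refer to that threshold. No low-signal filter was used. The steps were tested on simulated data. Brightness means a gene's mean over the 9 arrays.

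All 32 members were to be named, and up to 4 genes per further list and comparison with the smallest adjusted p among those that passed. The members and lists were chosen with earlier results of these data known. Alternatives, 19 in all, were other normalizations, probe set choices, model settings and each array left out. Promoter windows came from RefSeq, 250 bases before each start.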

Additional observations from a re-analysis of the deposited data

How the results depend on the processing

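Over the 19 alternatives, members that fell numbered 19 to 24 under TMT (21 as reported), 14 to 19 under TET (17) and 4 to 7 for TET against TMT (6). Members that rose numbered 3 to 6 under TMT (5 as reported), 4 to 7 under TET (5) and 12 to 16 for TET against TMT (15). Without probe sets that may bind related transcripts, members that rose under TMT numbered 3. Of the calls reported, 22 of 26 under TMT, 16 of 22 under TET and 13 of 21 for TET against TMT passed in the same direction under every alternative. Of the members that did not pass, 1 of 5, 0 of 9 and 0 of 10 kept both direction and side of the threshold under every alternative. The cause of these changes was not tested. Without probe sets that may bind related transcripts, calls were lost for Mvd in all 3 comparisons (0.15, 0.019 and -0.13). For TET against TMT they were lost for Me1 (0.17), Hsd17b7 (-0.54) and Fads2 (0.089). Calls were gained for Fdft1 under TET (-0.42, adjusted p = 0.0058, limma) and Idi1 for TET against TMT (0.46, adjusted p = 0.0046). Mvk under TMT kept its probe set and its difference of 0.26. Its call was lost too (adjusted p = 0.054), as the set of genes tested had changed.

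The main fit did not pair the samples by replicate number. Correlations of deviations between same-numbered arrays ran from -0.148 to 0.308, and 3 of 9 were over 0.1. Arrays with different numbers were not correlated for reference, so these values cannot decide whether the numbers pair the samples. With a replicate block, 20 members fell and 4 rose under TMT, 16 fell and 5 rose under TET, and 6 fell and 14 rose for TET against TMT. Calls over all genes under TMT numbered 5049 as reported and 8756 with array weights. Kept to the bright genes, calls over all genes under TET were 6066 in place of 9247, and 6270 in place of 9425 for TET against TMT, with fewer genes tested.

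Signs turned for these values. Scap had passed as reported, and 3 of the turned values themselves passed (limma): Lss under TET (adjusted p = 0.0015) and, for TET against TMT, Stard4 (adjusted p = 0.0031), both on the mean over probe sets, and Idi1 without probe sets that may bind related transcripts (adjusted p = 0.0046). Scap under TET was 0.067 on the mean over probe sets. Under TET, Fdft1 was 0.17 with cyclic loess, 0.048 with quantile normalization again and 0.0049 on the mean over probe sets. Lss under TET was -0.032 with array weights, -0.076 centred on array medians and -0.47 on the mean over probe sets. Under TET, Srebf1 was 0.21 with cyclic loess and 0.10 with quantile normalization again, and Tm7sf2 was 0.030 and 0.014. For TET against TMT, Hmgcs1 was -0.035 centred on array medians, -0.11 on the mean over probe sets and -0.15 without probe sets that may bind related transcripts. For the same comparison Idi1 was 0.15 with array weights, 0.14 with cyclic loess, 0.22 on the mean over probe sets, 0.030 with quantile normalization again and 0.46 without probe sets that may bind related transcripts. There Mvk was 0.053 with cyclic loess and 0.013 with quantile normalization again, Srebf1 was 0.037 with cyclic loess, and Stard4 was 0.23 with cyclic loess, 0.33 on the mean over probe sets and 0.17 with quantile normalization again. With 1 array left out at a time, values under TET ran from -0.32 to 0.079 for Fdft1, -0.10 to 0.10 for Lss and -0.16 to 0.14 for Srebf1. For TET against TMT they ran from -0.042 to 0.34 for Fdps, -0.073 to 0.19 for Hmgcs1, -0.13 to 0.11 for Idi1, -0.29 to 0.0044 for Srebf1 and -0.056 to 0.044 for Stard4.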

Other observations

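Of the 31 members, 11 are read by probe sets whose design may bind related transcripts: Srebf1, Hmgcs1, Pmvk, Mvd, Idi1, Fdft1, Lss, Hsd17b7, Fads2, Acsl3 and Me1. The mark is the name ending _s_at, _x_at or _a_at. For Srebf1, Hmgcs1, Pmvk, Idi1 and Me1 it is _a_at, which refers to several transcripts of the same gene and not to other genes. The spread between arrays of a group was largest under TET: the members' median SD was 0.197 there, 0.137 under TMT and 0.0722 in saline, beside 0.171, 0.118 and 0.0907 over all genes. The mean signal over the 9 fatty acid enzymes was 6.70, 6.76 and 7.08 in the TET arrays, 6.67 to 6.75 under TMT and 7.25 to 7.30 in saline. Over the 6 regulators it was 10.05 to 10.10 in saline, 9.39 to 9.43 under TMT and 9.81 to 9.97 under TET.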
